A study of Mus musculus with 8 samples.

Results

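Libraries of LSK cells from 2 groups of mice were compared: the 2 libraries from mice given glucose plus lipid, and the 2 PBS libraries that carry the same tag in their column names. LSK cells are the Lineage-, Sca-1+, c-Kit+ cells of the bone marrow, in which haematopoietic stem cells and early progenitors are found. These 4 libraries are part of 8 in the series, and they are called GL-H and GL-I (glucose plus lipid, replicates 1 and 2) and P-H and P-I (PBS, replicates 1 and 2). The mice were C57BL/6 males aged 12 to 13 weeks that had fasted for more than 14 hours before each injection. Over 7 days the GL mice received glucose at 2 g/kg with a 20% lipid emulsion at 6 mL/kg into a vein and the P mice received phosphate-buffered saline (PBS), with harvest on day 8. The other 4 libraries, G-A and G-B (glucose without lipid) and P-J and P-K (PBS, replicates 3 and 4), entered the estimate of spread and are given as references. That P-H and P-I are the controls of this treatment is an inference from the shared letters and tag, and whether each library is 1 animal or several is not given, so the p-values measure only the spread between these libraries.

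Stem and progenitor cells answer outside signals first through immediate early genes, transcription factors and feedback enzymes that are switched on within minutes and need no new protein. The kinase ERK and the factor CREB act on many of them, CREB through the motif called the cAMP response element. Mature neutrophils are made from the same stem cells along an ordered programme: enzymes of primary granules appear first, then proteins of secondary and tertiary granules, then receptors and the calcium-binding pair S100a8 and S100a9. The antibodies of the Lineage cocktail are meant to remove such mature cells from an LSK sort.

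Both treated libraries held the genes of the sort. Kit was at 164.1 and 187.5 FPKM in GL-H and GL-I against 192.3 and 170.3 in P-H and P-I, and Ly6a, which encodes Sca-1, at 319.0 and 423.6 against 295.4 and 338.0. FPKM divides a gene's fragments by its length and by the depth of the library, so levels can be set beside each other between genes. GL-H stood apart from the rest: it also held transcripts of maturing and mature cells, above all neutrophils. Genes of 4 neutrophil lists took 10.1% of its summed FPKM, against 0.303% to 0.38% in the other 7 libraries. Pearson correlations over all genes tested were 0.935 for GL-H with GL-I and 0.932 to 0.933 with P-H and P-I, against 0.956 to 0.967 among GL-I, P-H and P-I. Each result below therefore says what GL-H and GL-I did separately. Depth, read from the value of 1 fragment among low genes, was 1.45 times that of GL-H in GL-I, 1.09 times in P-H and 1.08 times in P-I, and between 11335 and 11771 genes reached 1 FPKM in these 4 libraries. In bulk RNA, fewer cells of a type and less RNA per cell cannot be told apart.

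Comparisons covered 11931 genes, those reaching 1 FPKM in 2 or more of the 8 libraries, on log2(FPKM + 1). A gene was counted as shared when the nearer treated library lay at least 1 (about 2-fold) beyond the nearer control. It was counted in GL-H alone when GL-H lay at least 1 beyond the most extreme of GL-I, P-H and P-I. Shared genes numbered 44 higher (0.369% of those tested) and 23 lower (0.193%), and GL-H alone had 269 higher (2.25%) and 17 lower (0.142%). The same count gave 28 higher (0.235%) and 42 lower (0.352%) in GL-I alone. For the controls it gave 13 (0.109%) and 22 (0.184%) in P-H alone, and 14 (0.117%) and 15 (0.126%) in P-I alone. Of the 44 shared higher genes 14 also met the rule for GL-H alone, because GL-H lay far above GL-I as well, and in 30 the treated libraries were within 1 of each other. In limma's moderated test over all genes, 7 genes were called higher (0.0587%) and 2 lower (0.0168%) at an adjusted p under 0.05, while 700 and 707 had an unadjusted p under 0.05. With 2 libraries against 2 an exact permutation test cannot go below p = 0.333, so no such test was run.

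The promoters below belong to genes that both treated libraries shared, and a second set to genes higher in GL-H alone. Each is 1 window of 300 bases from RefSeq on GRCm38.p6, 250 before and 50 after the start site, 5′ to 3′ on the gene's strand. Capitals mark TGACG on either strand, the core of the cAMP response element, and a run TGACGTCA is the full element, which holds the core on both strands.
Nr4a1, chr15:101266596-101266895, plus strand: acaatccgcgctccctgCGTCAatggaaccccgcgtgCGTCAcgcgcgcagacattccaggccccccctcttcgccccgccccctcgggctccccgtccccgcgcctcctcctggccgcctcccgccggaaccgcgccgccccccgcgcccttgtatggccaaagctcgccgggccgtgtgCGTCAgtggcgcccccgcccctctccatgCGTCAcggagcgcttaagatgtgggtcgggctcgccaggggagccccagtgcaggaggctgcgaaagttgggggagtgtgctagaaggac
Plk2, chr13:110394794-110395093, plus strand: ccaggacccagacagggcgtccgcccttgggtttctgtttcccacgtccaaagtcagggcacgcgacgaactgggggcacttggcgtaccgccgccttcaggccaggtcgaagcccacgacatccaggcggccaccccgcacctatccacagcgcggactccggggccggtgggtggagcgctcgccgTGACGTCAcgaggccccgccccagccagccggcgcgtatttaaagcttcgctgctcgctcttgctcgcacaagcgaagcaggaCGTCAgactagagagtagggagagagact
Dusp5, chr19:53528895-53529194, plus strand: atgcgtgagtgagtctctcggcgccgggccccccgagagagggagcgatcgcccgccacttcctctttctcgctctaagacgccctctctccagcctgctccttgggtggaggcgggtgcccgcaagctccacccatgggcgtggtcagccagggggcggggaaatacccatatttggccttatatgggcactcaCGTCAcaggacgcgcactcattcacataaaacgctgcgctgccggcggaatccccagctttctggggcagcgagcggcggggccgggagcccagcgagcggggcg
Btg2, chr1:134079106-134079405, minus strand: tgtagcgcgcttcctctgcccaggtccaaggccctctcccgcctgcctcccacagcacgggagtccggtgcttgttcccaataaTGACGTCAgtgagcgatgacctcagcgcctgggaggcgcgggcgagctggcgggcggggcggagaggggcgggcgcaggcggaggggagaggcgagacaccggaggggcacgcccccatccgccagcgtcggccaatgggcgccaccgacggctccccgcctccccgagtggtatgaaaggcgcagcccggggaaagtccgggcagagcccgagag

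Nr4a1 held 4 matches to TGACG, Dusp5 had 1 at 55 bases before its start, and Plk2 and Btg2 held the full element at 62 and 166 bases before theirs. Of 13 genes named as called or shared higher (Mir5107 counted, Retnlg left out), 8 had a window and 6 of these held TGACG. Ndufs5 and Cxcl10 had a window without it. Over all 40 shared higher genes that are not small RNAs, 28 had a window and 11 of these (39.3%) held it, against 20.9% of all 27025 windows and 32.6% of the 8509 windows of genes tested. The full element was in 3 of the 28 (10.7%), against 1.85% of all windows and 3.33% of those of genes tested.

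The next 3 promoters belong to neutrophil genes of GL-H alone. Capitals mark TTNNGNAA on either strand, a motif of the C/EBP factors that drive granule genes, where N is any base.
Ngp, chr9:110419558-110419857, plus strand: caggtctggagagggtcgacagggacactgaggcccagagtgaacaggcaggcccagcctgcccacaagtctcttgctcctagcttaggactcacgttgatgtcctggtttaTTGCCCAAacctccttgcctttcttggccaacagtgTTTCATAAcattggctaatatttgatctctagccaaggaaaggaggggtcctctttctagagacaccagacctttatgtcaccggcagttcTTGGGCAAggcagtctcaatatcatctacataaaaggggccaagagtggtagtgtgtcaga
Ltf, chr9:111019042-111019341, plus strand: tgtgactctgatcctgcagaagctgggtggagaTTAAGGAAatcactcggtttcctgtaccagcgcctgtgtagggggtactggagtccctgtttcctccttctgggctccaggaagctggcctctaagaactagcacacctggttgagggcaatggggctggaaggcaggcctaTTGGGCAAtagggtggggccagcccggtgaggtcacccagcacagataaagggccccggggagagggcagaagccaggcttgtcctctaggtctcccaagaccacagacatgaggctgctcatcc
S100a9, chr3:90695672-90695971, minus strand: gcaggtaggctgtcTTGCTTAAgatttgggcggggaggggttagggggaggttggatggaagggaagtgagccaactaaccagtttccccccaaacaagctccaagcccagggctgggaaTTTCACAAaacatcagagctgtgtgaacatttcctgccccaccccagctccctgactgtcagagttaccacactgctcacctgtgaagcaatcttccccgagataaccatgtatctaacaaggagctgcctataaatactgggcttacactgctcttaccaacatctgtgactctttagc

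Ngp had 3 matches, at 138, 102 and 11 bases before the start, and Ltf and S100a9 had 2 each. Of the 15 genes named for GL-H alone 11 had a window, and 10 of these held TTNNGNAA. Camp had a window without it. Of the 263 genes higher in GL-H alone that are not small RNAs, 182 had a window and 92 of these (50.5%) held TTNNGNAA, against 40.8% of all windows and 31.3% of those of genes tested. Among the 43 neutrophil list genes in that class 36 had a window, and 22 of these (61.1%) held it. TGACG was in 15.9% of the 182 windows. TTNNGNAA was also in 12 of the 28 windows of shared higher genes (42.9%). The kB site, the motif of NF-kB, was in 7 of those 28 windows, 5.49% of the 182 and 8.12% of the windows of genes tested. Each match describes letters in a window, and no binding was measured.

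The treated libraries were within 1 of each other for the 6 protein-coding genes called higher. Nr4a1, an orphan nuclear receptor, stood at 219.2 and 201.3 FPKM in GL-H and GL-I, at 47.0 and 28.3 in P-H and P-I, and at 24.8 and 27.1 in P-J and P-K. Dusp5, a nuclear phosphatase that switches ERK off, stood at 126.3 and 152.2 FPKM against 43.9 and 41.6, with 33.1 and 34.5 in P-J and P-K. The kinase gene Plk2, of the polo family, was at 57.1 and 72.1 FPKM against 14.5 and 18.1. The glucose libraries G-A and G-B held 304.3 and 177.0 FPKM of Nr4a1, 145.3 and 115.3 of Dusp5 and 72.9 and 54.9 of Plk2, so they too lay above the 4 PBS libraries. For these 3 genes the treated libraries did not overlap any of the 4 PBS libraries, and GL-I was above GL-H for Dusp5 and Plk2. Sik1, a salt-inducible kinase that restrains the coactivators of CREB, stood at 47.4 and 44.3 FPKM against 15.3 and 12.6. Nfkbiz, an atypical inhibitor protein of the NF-kB family, stood at 43.4 and 41.3 FPKM against 16.2 and 13.2. On the log2(FPKM + 1) scale limma gave Nr4a1 2.49 ± 0.28 (SE, adjusted p = 0.0381), Plk2 1.92 ± 0.22 (adjusted p = 0.0381), Dusp5 1.68 ± 0.14 (adjusted p = 0.0122), Sik1 1.66 ± 0.16 (adjusted p = 0.0166) and Nfkbiz 1.47 ± 0.14 (adjusted p = 0.0166). Without GL-H these differences were 2.43, 2.09, 1.81, 1.61 and 1.44, but of the 5 calls only that of Dusp5 held in limma with 1 treated library. Without P-H or without P-I none of the 5 was called.

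Ctsw, a cathepsin of cytotoxic lymphocytes, was also called. It stood at 34.4 and 37.2 FPKM against 11.4 and 12.6, with a difference of 1.503 ± 0.14 (SE, adjusted p = 0.015 in limma), but P-J and P-K held 24.8 and 28.9 FPKM. Of the 14 listed genes of T, NK and cytotoxic cells that were tested 12 had a difference above 0, and Ctsw was the only one called. Over all genes tested 51.7% lay above 0 and 0.0587% were called higher. Higher in GL-H alone were 4 of the 14, against 2.25% of all genes tested. Nkg7, a granule protein of such cells, stood at 406.9 and 325.5 FPKM against 403.2 and 344.7. Against P-J and P-K the difference of Ctsw was 0.40, and it was not called.

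Among the shared higher genes that were not called, Btg2, which slows proliferation, stood at 101.7 and 81.6 FPKM in GL-H and GL-I against 24.3 and 22.4 in P-H and P-I. Klf2, a factor tied to quiescence in lymphocytes and endothelium, stood at 61.6 and 57.2 FPKM against 17.5 and 18.6. Their differences were 1.92 ± 0.26 (adjusted p = 0.0758 in limma) and 1.67 ± 0.28 (adjusted p = 0.126). For both genes the treated libraries were alike and above all 4 PBS libraries. Atf3, a stress-induced factor of the ATF family, stood at 20.9 FPKM in GL-H, 7.28 in GL-I, 1.04 in P-H and 0.406 in P-I. Cxcl10 and Ccl5, chemokines that call T cells, stood at 16.1 and 12.5 FPKM against 2.22 and 1.93, and at 34.9 and 13.2 against 2.63 and 0.890. Atf3 and Ccl5 were thus higher in GL-H than in GL-I, and Cxcl10 was similar in both.

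**Figure D1:**
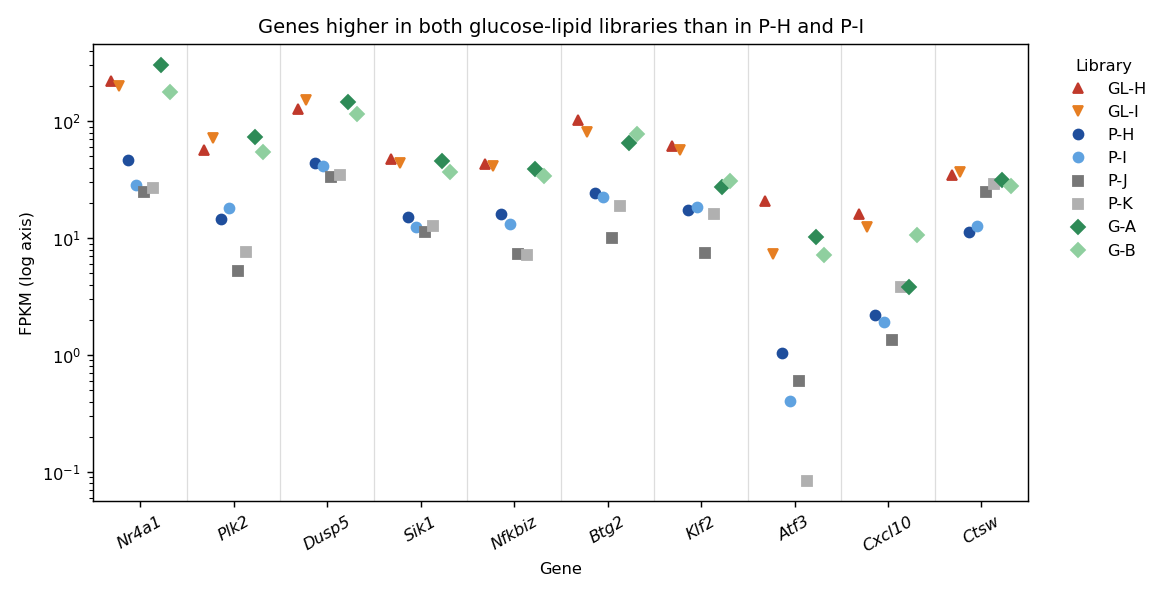
FPKM (log axis) of 10 genes in each of the 8 libraries, 1 point per library. For each gene the red and orange triangles (GL-H and GL-I) lie above both blue circles (P-H and P-I). Ctsw is the gene in which the grey squares (P-J and P-K, 24.8 and 28.9 FPKM) come close to the treated libraries.

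Other shared higher genes, named after their values were seen, belonged to antigen presentation and to red cells. Cd74, the invariant chain of MHC class II, stood at 708.6 and 358.7 FPKM against 83.9 and 158.4, and H2-Aa, a class II alpha chain, at 241.0 and 132.6 against 38.7 and 62.7. In P-K, however, Cd74 stood at 281.3 and H2-Aa at 141.0 FPKM, so for H2-Aa GL-I lay below this PBS library. Alpha globin, summed over Hba-a1 and Hba-a2, stood at 1125 and 686.7 FPKM in GL-H and GL-I, 213.1 and 218.0 in P-H and P-I, and 28.7 and 28.4 in P-J and P-K. The copies are nearly identical, and reads may be split between them: Hba-a2 alone stood at 751.7 FPKM in GL-H and 18.9 in GL-I. Alas2, the first enzyme of haem synthesis in red cells, stood at 39.4 and 13.8 FPKM against 4.40 and 4.66, and at 0.349 and 0.432 in P-J and P-K. All 4 tagged libraries thus held more alpha globin and Alas2 than the other 4. The shared gene with the largest distance, Ndufs5, a subunit of complex I, stood at 20.2 and 20.9 FPKM against 0.00363 and 0.00301. It was also near 0 in P-J, P-K and G-A but at 11.7 in G-B, and such near-0 values of a gene needed by every cell may be failed estimates.

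Against P-J and P-K, which the rule did not use, the shared higher and shared lower genes differed. Leaving out small RNAs, 39 of 40 shared higher genes had both treated libraries above both P-J and P-K, and 20 of these by at least 1. Of the 20 shared lower genes 3 had both treated libraries below both P-J and P-K, none of them by 1 or more. Over all genes tested the shares were 21.9% above and 24.1% below. The treated libraries are the same in both counts, so this is not a repeat of the treatment, and it was not tested. In 18 of the 20 shared lower genes P-H and P-I were above all other 6 libraries, glucose included.

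Of the 20 shared lower genes that were not small RNAs, 3 were mast cell proteases. Of the 10 tested genes of the mast cell, basophil and eosinophil list, 4 had a difference above 0 and 6 below, none was called, and 3 were higher in GL-H alone. Over all genes tested 51.7% lay above 0 and 48.2% below, and 2.25% were higher in GL-H alone. Tpsb2, a mast cell tryptase, stood at 11.1 and 5.68 FPKM in GL-H and GL-I, 45.6 and 43.4 in P-H and P-I, and 16.6 and 1.19 in P-J and P-K. Cma1, mast cell chymase, stood at 9.26 and 12.5 FPKM against 35.3 and 42.5, and at 15.1 and 1.03 in P-J and P-K. Cpa3, mast cell carboxypeptidase, stood at 35.7 and 15.6 FPKM against 96.2 and 93.2, and at 39.8 and 11.9 in P-J and P-K. In all 3 genes P-H and P-I were nearly equal and high, and the treated libraries lay inside or near the range of the other PBS pair. Other genes of the list lay elsewhere. Gata2, a factor that mast cells and progenitors share, stood at 55.3 and 59.3 FPKM against 58.0 and 55.8. Mcpt8, of basophils, stood at 80.0 and 5.404 FPKM against 21.2 and 22.3, Ear2, of eosinophils, at 29.99 and near 0 against 0 and 0.742, and Ccr3, the eotaxin receptor, at 6.45 and 1.215 against 1.11 and 0.0937. The last 3 were high in GL-H and not in GL-I. Gzmb, a granzyme, stood at 3.58 and 1.497 FPKM against 10.4 and 13.6. Tpsb2, Cma1, Cpa3 and Gzmb were not called (adjusted p = 0.265 to 0.436 in limma).

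Spns2, a transporter that exports sphingosine 1-phosphate, was the only protein-coding gene called lower. It stood at 23.2 and 26.2 FPKM against 74.2 and 68.6 (-1.49 ± 0.16 SE, adjusted p = 0.0349 in limma), and at 19.9 and 24.1 in P-J and P-K, so the treated libraries were near the second PBS pair. Spred1, an inhibitor of Ras signalling, stood at 2.88 and 2.52 FPKM against 14.4 and 10.04, and Fgfrl1, an FGF receptor without a kinase domain, at 1.71 and 0.782 against 6.32 and 7.67. Plekha3, a lipid-binding protein of the Golgi, stood at 3.59 and 2.204 FPKM against 13.0 and 12.1. Spred1 and Plekha3 stood at 2.04 to 3.89 FPKM in P-J and P-K, near the treated libraries. Fbxo45, a subunit of a ubiquitin ligase, stood at 3.02 and 3.33 FPKM against 12.0 and 9.06, and Zfp934, a zinc finger gene with close copies among which reads may be split, at 10.7 and 9.97 against 28.4 and 27.6.

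**Figure D2:**
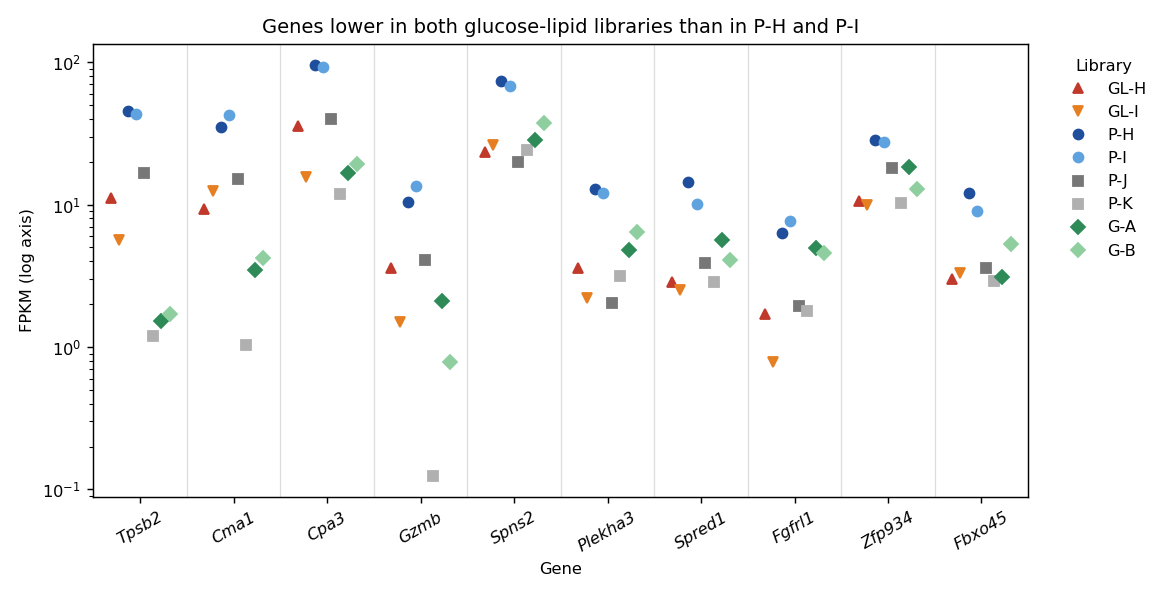
FPKM (log axis) of 10 genes counted as lower in both treated libraries, 1 point per library. In each gene the blue circles (P-H and P-I) are the highest of the 8 points. Tpsb2 shows it plainly, with 45.6 and 43.4 FPKM in blue and 16.6 or less in the other 6 libraries.

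The other 2 calls were microRNA genes. Mir3112 was listed at 1619 and 1641 FPKM in P-H and P-I and at 0 in the other 6 libraries, and its mature sequences are shown with the seed, bases 2 to 8, in capitals.
mmu-miR-3112-5p, chrX:134075330-134075350: aCAUAGAAaaggcagucugca
mmu-miR-3112-3p, chrX:134075366-134075386: cAGUUUGUcucuucuuugucu
The ratio of the values in P-I and P-H was 1.01, as was the ratio of what 1 fragment is worth in these libraries, so both held the same number of fragments to within rounding. Mir5107 was listed at 3431 and 944.9 FPKM in GL-H and GL-I, at 539.2 and 604.6 in G-A and G-B and at 0 in all 4 PBS libraries. By the same reckoning GL-H held 2.5 times as many fragments of it as GL-I. GENCODE places this microRNA within the gene Cd74 and in its orientation, and how fragments of the host gene and the microRNA were told apart is not given in the sources used here. Cd74 was itself among the shared higher genes. The number of fragments behind Mir3112 or Mir5107 is not known. On a precursor this short 1 fragment is worth many FPKM, and single libraries can stand out: Mir17 was listed at 1691 FPKM in GL-I, at 1196 in P-J and at 0 in the other 6 libraries.

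GL-H alone held 263 higher genes that were not small RNAs, and neutrophil genes led them. Of the 72 neutrophil list genes in the files 54 were tested, and 43 of these met the rule for GL-H alone. Over all 72, with no filter, GL-H was the highest of the 8 libraries for 66 and by at least 1 for 55. Over all 23284 genes in the files these shares were 16.4% and 1.78%. S100a8, a subunit of calprotectin, stood at 35390 FPKM in GL-H, 97.1 in GL-I, 84.0 in P-H and 114.0 in P-I. S100a9, its partner, stood at 17290 FPKM in GL-H and at 45.2, 34.9 and 52.3. Together these made up 6.76% of the summed FPKM of GL-H and 0.0176% to 0.0466% elsewhere. The same pair was present at a low level in every library, so GL-H differed in amount, not in presence.

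Of the 14 secondary granule genes GL-H was the highest of the 8 libraries for 13, and by at least 1 for 12. Ngp, neutrophilic granule protein, stood at 4450 FPKM in GL-H, 1.005 in GL-I, 8.92 in P-H and 8.74 in P-I. Camp, the cathelicidin, stood at 3163 FPKM in GL-H and at 2.18, 3.99 and 8.82, and Ltf, lactoferrin, at 1158 and at 0.252, 1.51 and 3.06. Lcn2, which binds bacterial iron carriers, stood at 1974 FPKM in GL-H and at 0.660, 3.08 and 8.02. For Ngp, Camp, Ltf and Lcn2, GL-I was the lowest of the 8 libraries, so the treated libraries were at opposite ends. Serpinb1a, a protease inhibitor, stood at 203.7 FPKM in GL-H and at 139.4 to 185.0 in the other 7 libraries.

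Of the 11 primary granule genes GL-H was the highest for 9, and by at least 1 for 7. Hp, haptoglobin, stood at 267.3 FPKM in GL-H and at most 2.25 in the other 7 libraries, while Cst7, a cystatin, stood at 46.1 in GL-H and at 30.5 to 51.4 in the others. Elane, neutrophil elastase, stood at 475.8 FPKM in GL-H and at 18.2, 12.5 and 2.02 in GL-I, P-H and P-I. Of the 12 tertiary granule genes GL-H was the highest for 12, and by at least 1 for 9. Mmp9, gelatinase B, stood at 145.9 FPKM in GL-H and at 1.45, 0.193 and 0.539. Padi4, which modifies histones, stood at 70.7 FPKM in GL-H and at 43.5 to 68.5 in the others.

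The remaining genes named for GL-H alone were also of neutrophils or inflammation. Chi3l3, a chitinase-like protein, stood at 987.4 FPKM in GL-H and at most 5.29 in the other 3, and Ifitm6, a membrane protein of the interferon-induced family, at 254.8 and at most 1.28. Cd177, a neutrophil surface protein, stood at 186.7 FPKM and at most 1.20, and Il1b, interleukin-1 beta, at 161.2 and at most 1.24. Slpi, a protease inhibitor, stood at 259.1 FPKM and at most 4.24, and Chi3l1, another chitinase-like protein, at 63.4 and at most 0.479. Retnlg, a resistin-like protein of neutrophils, stood at 1194 FPKM in GL-H, 14.1 in GL-I, 0 in P-H and 3.95 in P-I, and so met the shared rule as well. None was called across both treated libraries, since the 2 differed so much: the SE of Ngp was 2.88 around a difference of 3.26.

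**Figure D3:**
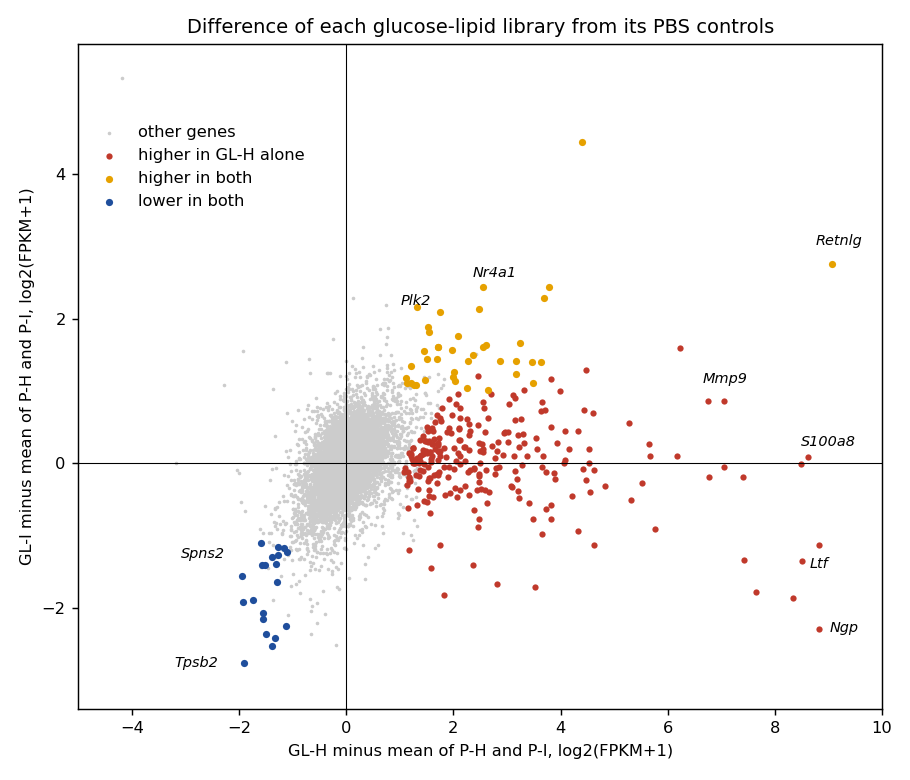
Each point is 1 gene that is not a small RNA, placed by the difference of GL-H (horizontal) and of GL-I (vertical) from the mean of P-H and P-I on log2(FPKM + 1). Red points, higher in GL-H alone, stretch far to the right at heights around 0, and Ngp sits at the lower right, while shared genes such as Nr4a1 lie away from 0 on both axes. The unlabelled yellow point at the top is Ndufs5.

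Neutrophil genes were not the only ones of maturing and mature cells in GL-H. On marker lists counted with no filter on low values, GL-H was the highest of the 8 libraries for 24 of 25 monocyte and macrophage genes, 16 of 18 erythroid genes and 15 of 18 B and plasma cell genes. It was the highest for 15 of 22 genes of T, NK and cytotoxic cells, 10 of 18 of mast cells, basophils and eosinophils, 10 of 16 of stroma and endothelium, 8 of 19 of megakaryocytes and platelets and 4 of 10 of the LSK gate. The share over all genes in the files was 16.4%. By at least 1 it was the highest for 16, 12, 10, 9, 5, 3, 0 and 3 genes of these lists in turn, and for 1.78% of all genes. The examples that follow were chosen after their values were seen. Lgals3, a galectin of macrophages, stood at 111.2 FPKM in GL-H and at 2.18, 2.18 and 3.92 in GL-I, P-H and P-I, and F13a1, of monocytes, at 33.3 and at 0.379, 3.30 and 0.709. Cd79a, part of the B cell receptor, stood at 19.1 FPKM in GL-H and at most 0.380 in the other 7 libraries. Rhd, an erythroid surface protein, stood at 34.9 FPKM in GL-H and at 1.47, 1.74 and 1.65 in GL-I, P-H and P-I. Prss34, a protease of basophils, stood at 140.4 FPKM in GL-H and at most 0.602 elsewhere. Fcer1a, which basophils and mast cells share, did not follow, with 9.26 FPKM in GL-H against 9.01 and 12.6 in P-H and P-I.

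Summed levels differed less between libraries for other lists. Megakaryocyte and platelet genes summed to 831.1 FPKM in GL-H and 659.2 to 824.9 in the other 7 libraries, and genes of T, NK and cytotoxic cells to 583.8 and 420.5 to 570.4, of which Nkg7 alone made up 406.9 FPKM in GL-H. The T cell receptor genes Cd3d, Cd3e and Cd3g stood at 3.72, 3.78 and 4.74 FPKM in GL-H and at most 0.894 elsewhere. Stroma and endothelium genes summed to 82.1 FPKM against 40.1 to 70.0, with the collagen genes Col1a1, Col1a2 and Col3a1 at 0.626 FPKM or less in GL-H. Genes of the LSK gate summed to 1445 FPKM in GL-H, within 1354 to 1738 in the rest. Itgam, which encodes Mac-1, an antigen of Lineage cocktails, stood at 44.5 FPKM in GL-H and at 7.59, 6.15 and 7.39. What part the transcripts of maturing and mature cells had in any result shared by both treated libraries was not tested. For Nr4a1, Plk2, Dusp5, Sik1, Nfkbiz and Ctsw the differences were 1.47 to 2.49 with both treated libraries and 1.44 to 2.43 without GL-H.

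**Figure D4:**
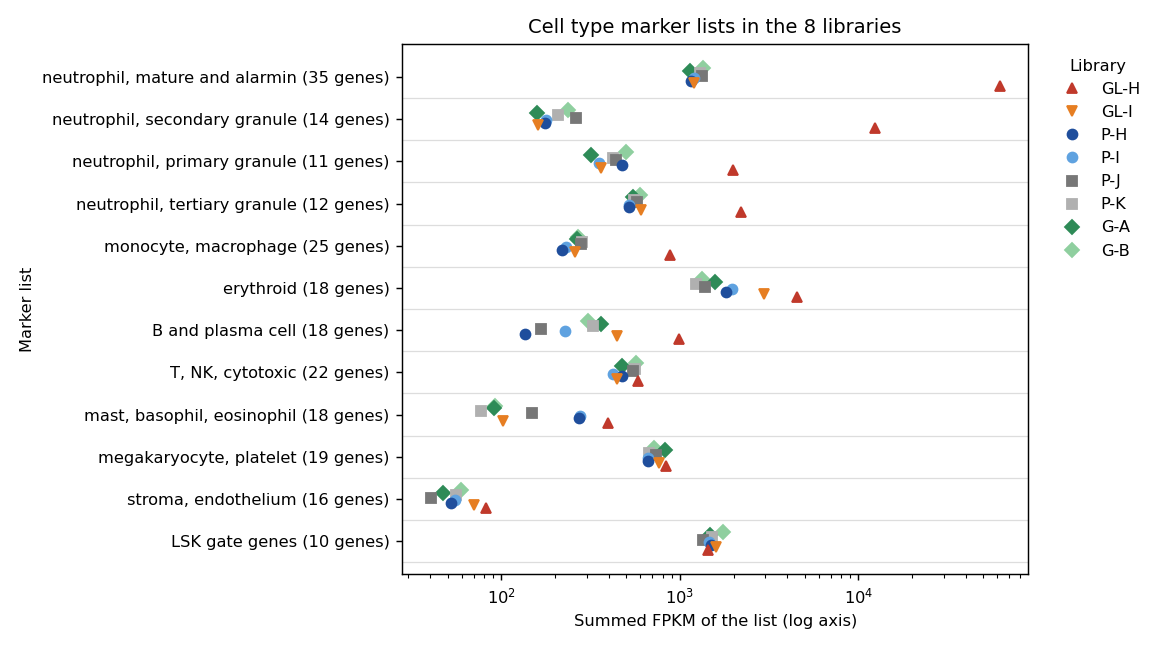
Summed FPKM (log axis) of 12 marker lists, 1 point per library. GL-H (red triangles) lies at 61820 FPKM for mature neutrophil genes and 12400 for secondary granule genes, where the other 7 libraries lie at 1139 to 1346 and 159.0 to 261.7. For the genes of the LSK gate all 8 points lie together.

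The filter hid part of this. A gene present in GL-H and nowhere else reaches 1 FPKM in 1 library, so it was not tested. Leaving out small RNAs, 332 genes reached 1 FPKM in GL-H only, against 29 to 72 in each of the other 7 libraries. Of these, 73 were at 5 FPKM or more in GL-H while under 1 elsewhere, against 0 or 1 in each of the others, and 12 of the 73 were in the neutrophil lists. With no filter, genes higher in GL-H alone numbered 489 in place of 269. Of the 263 tested genes that were not small RNAs, GL-I lay above both controls in 119, between them in 66 and below both in 78, and 156 were in no list.

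Few genes were lower in GL-H alone. Rnaset2a, a ribonuclease gene with a close copy, stood at 0.0940 FPKM in GL-H and at 8.89, 10.6 and 7.43 in GL-I, P-H and P-I. Efna1, an ephrin ligand, stood at 1.45 FPKM and at 4.84, 4.11 and 6.31. In GL-I alone Rpl35, a ribosomal protein gene, stood at 102.9 FPKM against 18.0 to 23.0 in the other 3, and Rasd1, a Ras-like protein induced by dexamethasone, at 21.2 against 6.58 to 8.995. Dcstamp, a fusion protein of osteoclasts and dendritic cells, stood at 12.7 FPKM against 1.99 to 5.45, and Fhit at 8.06 against 1.98 to 3.32. Lower in GL-I alone were Fcer1a, a subunit of the IgE receptor, at 1.04 FPKM against 9.01 to 12.6, and Mcpt8, a basophil protease, at 5.404 against 21.2 to 80.0. With P-J and P-K, where Fcer1a stood at 4.6 and 0.183 FPKM, GL-I no longer lay lowest for it.

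Gene lists showed what both treated libraries shared below the level of single calls. Of 34 immediate early genes tested, 30 had a difference above 0, and 27 (79.4%) had both treated libraries above both controls, against 22.2% of all genes tested. The median was 0.79 on log2(FPKM + 1), with 0.81 in GL-H and 0.77 in GL-I, where the median of all genes was 0.01. In this list 2 genes were called higher, Nr4a1 and Dusp5, and none lower. Over all genes tested 0.0587% were called higher and 51.7% had a difference above 0. Summed over the list, FPKM was 5269 and 5731 in GL-H and GL-I and 4930 and 4875 in G-A and G-B. The 4 PBS libraries lay at 2477 to 2895, so the glucose libraries too lay above them. Named after their values were seen, Fos stood at 1145 and 922.5 FPKM against 430.0 and 400.4, and Junb at 216.1 and 207.0 against 111.8 and 90.7. Egr1, a zinc finger factor, stood at 332.9 and 534.6 FPKM against 226.3 and 210.3, and Ier2 at 490.5 and 643.3 against 299.7 and 297.0. In these 4 genes the treated libraries did not overlap P-H and P-I, though the order of GL-H and GL-I changed from gene to gene. Jun itself stood at 150.8 and 143.1 against 124.2 and 103.6, and Myc, at 227.5 and 243.9 against 273.9 and 256.2, lay on the other side.

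Feedback genes of ERK fell on both sides of 0. Of 18 tested, 9 lay above and 9 below it, near the 51.7% and 48.2% of all genes tested. Dusp5 was the 1 gene called higher, against 0.0587% of all genes tested. Spred1, of this list too, was lower, at 2.88 and 2.52 FPKM against 14.4 and 10.04, with 3.885 and 2.837 in P-J and P-K. Dusp1 stood at 693.5 and 665.0 FPKM against 320.3 and 375.7 and Spry1, a Sprouty inhibitor, at 17.1 and 17.9 against 6.96 and 7.80. Neither was called (adjusted p = 0.164 and 0.0758 in limma), while Dusp6 stood at 61.8 and 62.3 against 62.2 and 75.2. Genes of CREB and the salt-inducible kinases lay above 0 for 15 of 23, and 11 (47.8%) had both treated above both controls. All genes tested gave 51.7% and 22.2%. The median was 0.15 (0.23 in GL-H, 0.21 in GL-I), and Nr4a1 and Sik1 were called. Sik3 was lower, at 1.245 and 1.925 FPKM against 4.78 and 4.25, with 0.990 and 1.28 in P-J and P-K.

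Interferon response genes lay above 0 for 50 of 55, and 41 (74.5%) had both treated above both controls, where all genes tested gave 51.7% above 0 and 22.2% with both above. The median was 0.48, with 0.39 in GL-H and 0.48 in GL-I, and none was called. Their summed FPKM was 7611 and 8037 in GL-H and GL-I, 7602 and 7841 in G-A and G-B, and 6055 to 7329 in the 4 PBS libraries. Irf7, the factor that amplifies the type I response, stood at 36.0 and 31.4 FPKM against 14.1 and 14.7, but at 5.90 and 20.2 in P-J and P-K. Isg15, a ubiquitin-like protein, stood at 17.2 and 16.1 FPKM against 5.95 and 8.65. Zbp1, a sensor of nucleic acid, stood at 20.1 and 13.9 FPKM against 4.93 and 8.70.

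Cholesterol synthesis genes, most of them targets of the sterol factor SREBP2, lay above 0 for 26 of 33, and 22 (66.7%) had both treated above both controls, beside the same 51.7% and 22.2% of all genes. The median was 0.29 (0.25 in GL-H, 0.27 in GL-I) and 0.13 against P-J and P-K, and none was called. Insig1, which holds the sterol sensor in the endoplasmic reticulum, stood at 30.6 and 38.0 FPKM against 15.9 and 19.4, with 20.4 and 23.9 in P-J and P-K. Both treated libraries lay above all 4 PBS libraries. Among 36 genes of fatty acid use and PPAR targets the median was 0.13, with 0.08 in GL-H and 0.03 in GL-I, and Plin2, which coats lipid droplets, stood at 39.2 and 40.6 FPKM against 26.0 and 34.7. Hilpda, another lipid droplet protein, stood at 103.3 and 100.8 FPKM against 71.7 and 67.5, with 76.8 and 93.9 in P-J and P-K. In G-A and G-B it stood at 123.7 and 105.7 FPKM. Both treated libraries lay above both controls in 11 of the 36 (30.6%), against 22.2% of all genes tested. Higher in GL-H alone were 6 of the 36, against 2.25% of all genes tested. Of these 6, Dgat2 stood at 11.95 FPKM in GL-H, 0.781 in GL-I, and 0.624 and 1.125 in P-H and P-I. Dgat1 stood at 49.74 and 13.89 FPKM against 15.02 and 17.45.

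Genes of G2 and M phase lay below 0 for 48 of 48, and 31 (64.6%) had both treated libraries below both controls. Over all genes tested these shares were 48.2% and 21.8%. The median was -0.32, with -0.24 in GL-H and -0.46 in GL-I, and none was called. Bub1, a spindle checkpoint kinase, stood at 14.0 and 8.66 FPKM against 25.8 and 19.7, and Smc4, of condensin, at 64.7 and 59.9 against 100.9 and 116.4. Against P-J and P-K, where Smc4 stood at 74.7 and 67.6 FPKM, the median was -0.04. S phase genes had a median of 0.01 against P-H and P-I (0.01 in GL-H, 0.01 in GL-I) and -0.27 against P-J and P-K. Genes of oxidative phosphorylation had medians of 0.02 (0.02 in GL-H, 0.04 in GL-I) and -0.27. These lists thus stood apart from one PBS pair or the other, not from both.

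NF-kB and inflammatory genes lay above 0 for 24 of 28, and 17 (60.7%) had both treated above both controls. Over all genes tested these shares were 51.7% and 22.2%. The median was 0.35 (0.45 in GL-H, 0.38 in GL-I). Nfkbiz was the 1 gene of the list called higher, against 0.0587% of all genes tested. Higher in GL-H alone were 5 of the 28, Il1b among them, against 2.25% of all genes tested. Genes of p53 and of cell cycle inhibitors lay above 0 for 22 of 27, and 12 (44.4%) had both treated above both controls. The median was 0.27 against P-H and P-I (0.15 in GL-H, 0.15 in GL-I) and 0.54 against P-J and P-K. Plk2 was the 1 gene of the list called, and 5 were higher in GL-H alone. Cdkn1a, which encodes the inhibitor p21, stood at 51.4 and 49.9 FPKM against 25.8 and 25.7, and was not called (adjusted p = 0.0549 in limma). Heat shock genes lay below 0 for 25 of 30, and 14 (46.7%) had both treated below both controls. Over all genes tested the shares were 48.2% and 21.8%. The median was -0.10 against P-H and P-I (-0.10 in GL-H, -0.20 in GL-I) and -0.54 against P-J and P-K, and none was called.

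Stem cell genes parted the treated libraries: over 33 genes the median was -0.05 in GL-H and 0.29 in GL-I. With both treated libraries 22 lay above 0, and 10 (30.3%) had both above both controls. Over all genes tested these shares were 51.7% and 22.2%. Against P-J and P-K the median was 0.20 and 32 of the 33 lay above 0, where 6033 of 11931 genes tested did. Procr, which marks long-term stem cells, stood at 62.5 and 99.5 FPKM against 44.4 and 70.6, so GL-H lay between the controls and GL-I above them. Gfi1b, a repressor of stem cell and red cell lineages, stood at 44.9 and 53.4 FPKM against 25.4 and 26.7. In P-J and P-K it stood at 22.0 and 45.2 FPKM, so GL-H did not lie above all PBS libraries.

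**Figure D5:**
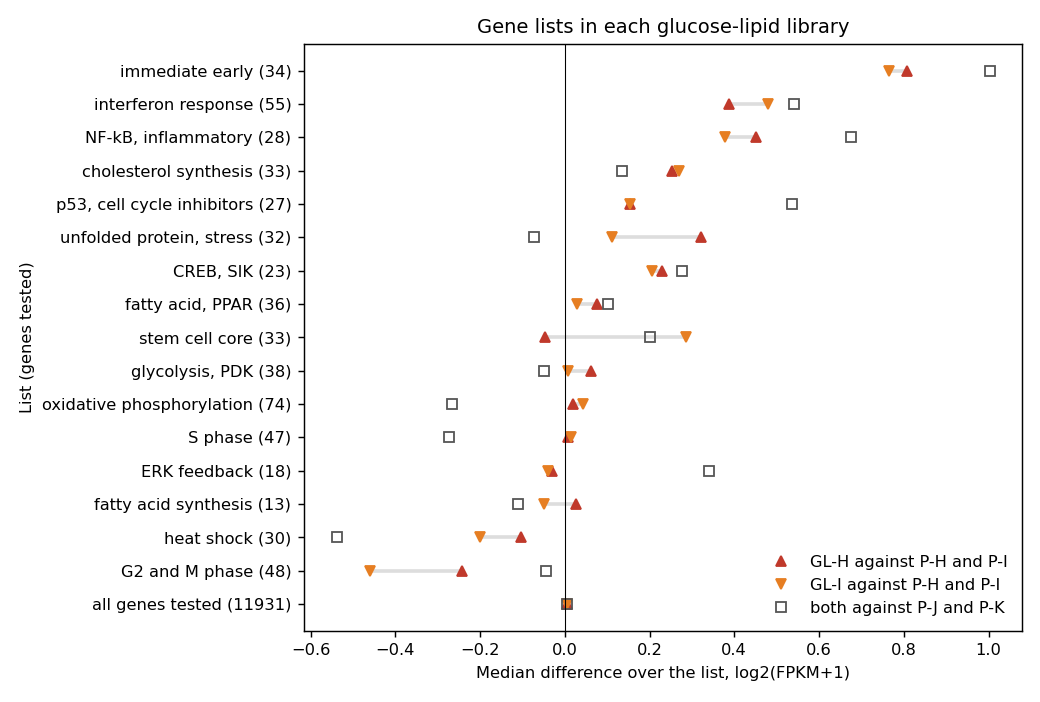
Median difference on log2(FPKM + 1) of 16 gene lists and of all genes tested, for GL-H and GL-I each against the mean of P-H and P-I (triangles) and for both against P-J and P-K (open squares). Immediate early genes lie furthest right, at 0.81 and 0.77. For G2 and M phase genes the open square, at -0.04, lies apart from the triangles at -0.24 and -0.46.

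The scale of FPKM matters for directions. GL-H had the largest sum of FPKM outside small RNA genes, 1.14 times the mean of the 8 libraries, against 0.944 to 0.97 in GL-I, P-H and P-I. Rescaled to equal sums without small RNA genes, the median of all genes moved from 0.01 to -0.13, and 10 genes were called higher and 12 lower in place of 7 and 2. All 7 protein-coding genes called in the main comparison were among them. On the rescaled values the medians of the immediate early (0.66), interferon (0.35), cholesterol (0.15) and G2 and M phase (-0.47) lists kept their sign. Those of fatty acid use (-0.02) and stem cell genes (-0.03) lay below 0 but above the rescaled median of all genes. That of the CREB and salt-inducible kinase genes was near 0 (4.8e-05).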

How the data were processed

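RNA from about 10000 sorted LSK cells per library was sequenced in 8 libraries. The authors deposited 1 file of FPKM per library, and per the submitters' processing notes they come from Cuffnorm 2.2.1, with alignment tools named as TopHat2 2.0.13 and Bowtie2 2.2.3, SAMtools 1.0 and the mm10 build. The unit was read from the values and from Cuffnorm's use, the number of reads is not given, and depth is known only relative to GL-H, so no counting interval is given. Each file lists 23284 gene symbols.

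Values were taken as log2(FPKM + 1), which understates changes of low genes. Genes with 1 FPKM or more in 2 or more libraries were kept. Limma 3.58.1 with an intensity trend (R 4.3.3) was fitted to all 8 libraries in 4 groups, with 4 residual degrees of freedom and Benjamini-Hochberg adjustment at 0.05, and was tested on simulated data. Other steps used Python 3.11.15 with pandas 2.3.3, and matplotlib 3.10.9 drew the plots. The genes named were those called and at a mean of 3 FPKM or more. Per direction they were joined by the 10 shared genes with the largest distance and, for GL-H alone, by 15 higher and up to 8 lower genes, and for GL-I alone by 6 higher and 4 lower, each at 5 FPKM or more in the higher libraries. From each other list up to 4 members with the largest differences were taken. Further examples were picked after their values were seen, and some genes under the rule are left unnamed. The comparison, the 32 gene lists and the tests were chosen with earlier results of these data known. Promoters and mature microRNAs came from RefSeq on GRCm38.p6: of 28 named genes looked for, 19 had a promoter window, and 9 motifs were searched on both strands (the cAMP response element TGACGTCA and its core TGACG, AP-1 as TGANTCA, C/EBP as TTNNGNAA, PU.1 as GAGGAAG, EGR as GCGTGGGCG, the TATA box as TATAAA, the CArG box and the kB site). Alternatives changed the pseudocount, the filter, the scaling, the controls, the libraries, the trend and the least distance. Results for some listed genes are not reported here.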

Additional observations from a re-analysis of the deposited data

How the results depend on the processing

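Calls across 4 libraries were few and easily moved. Under glucose+lipid against PBS H and I, genes called higher numbered 7, and the count was 1 with no filter on low values, 3 with only the 4 libraries compared and 27 with P-J and P-K as controls. Leaving out 1 library at a time gave 1 to 254: 1 without P-H, 2 without P-I, 4 without GL-H, 254 without GL-I and 16 without P-J or without P-K. Of the 254, 188 were genes higher in GL-H alone. Under glucose+lipid against PBS H and I, genes called lower numbered 2, and the count was 12 with small RNA genes left out and rescaled, 1 with only the 4 libraries, 1 with P-J and P-K, and 0 with all 4 PBS as controls (limma, where 438 had an unadjusted p under 0.05). Leaving out 1 library gave 2 to 17, the 17 without GL-I. The same 7 protein-coding calls were all lost without P-H, without P-I, with no filter and with only the 4 libraries compared. Genes higher in both treated libraries (44) numbered 94 with a pseudocount of 0.1, 143 at a least distance of 1.5-fold, 7 at 4-fold, 71 against P-J and P-K and 21 against all 4 PBS. Genes lower in both treated libraries (23) numbered 46, 161, 2, 10 and 1 under the same settings, and 40 when rescaled. In GL-I alone against both controls, chosen after seeing the data, 101 genes were higher and 119 lower. Genes higher in GL-H alone (269) numbered 489 with no filter, 106 at 5 FPKM or more, 482 at 1.5-fold and 126 at 4-fold. Genes lower in GL-H alone (17) numbered 87 with a pseudocount of 0.1, 8 at 5 FPKM or more, 88 at 1.5-fold, 6 at 4-fold and 8 against all 4 PBS. Genes higher in GL-I alone (28) numbered 50 with a pseudocount of 0.1, 48 with no filter, 16 at 5 FPKM or more, 137 at 1.5-fold, 7 at 4-fold and 18 against all 4 PBS. Genes lower in GL-I alone (42) numbered 128 with a pseudocount of 0.1, 159 at 1.5-fold, 3 at 4-fold, 20 against P-J and P-K and 7 against all 4 PBS. Against P-J and P-K the log2 fold change turned positive for Spns2 (0.164), Tpsb2 (0.533), Plekha3 (0.11), Cma1 (1.04), Cpa3 (0.106) and Gzmb (0.497). Leaving out 1 treated library took Lgals3 from -0.315 (without GL-H) to 4.83 (without GL-I) and Ear2 from -0.400 to 4.55. The distance in GL-I alone turned to -0.787 for Fcer1a and -0.499 for Csnk1g2 with P-J and P-K, alone or among all 4 PBS, as controls. The replicate numbers are not shown to pair the samples (r = 0.066 between the deviations of GL-H and P-H over 11931 genes), and the fit with a replicate block called 9 higher and 2 lower, Spns2 no longer among them. The cause of each change was not tested. With 1 treated or control library left, that library is assumed to vary like the other groups. Depth is known only in ratios, so the limit of detection of genes near 0 is not known.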
